A study of Mus musculus with 6 samples.

Results

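The genes described here are the constitutive androstane receptor CAR (*Nr1i3*), the pregnane X receptor PXR (*Nr1i2*) and 8 cytochrome P450 genes of the Cyp2b and Cyp3a subfamilies, *Cyp2b9*, *Cyp2b10*, *Cyp2b13*, *Cyp3a11*, *Cyp3a13*, *Cyp3a16*, *Cyp3a25* and *Cyp3a41a*. They were chosen by name, with earlier results of these data known, and the 10 genes stand among 54115 genes summed from the deposited transcripts. Their RNA was measured in liver samples from 3 male WT mice and 3 male *Sirt7* KO mice. All 6 mice were 24 months old and had been fasted for 16 h. The *Sirt7* KO line came from another laboratory and was backcrossed to C57BL/6J, and WT and KO mice were littermates from crosses of heterozygous parents. The knockout was carried by the whole animal, so an effect within hepatocytes and an effect through other organs cannot be told apart. The libraries were made from 1 ng of total RNA with the SMART-seq HT kit, which makes full-length cDNA. The RNA was isolated from liver tissue, so the libraries hold all cell types of the liver.

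CAR and PXR are nuclear receptors that sense drugs, bile acids and steroids in hepatocytes. After activation they pair with the retinoid X receptor, bind repeats of a short DNA core site and switch on P450s, conjugating enzymes and transporters that clear these compounds. P450s need electrons from the reductase POR and a heme group whose synthesis starts at ALAS1. In mice several Cyp2b and Cyp3a genes also depend on sex, because the pulses of growth hormone in males keep female genes such as *Cyp2b9*, *Cyp2b13*, *Cyp3a16* and *Cyp3a41a* low.

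Between 9994860 and 13424776 reads per liver were assigned to transcripts, and 12524 genes had enough reads to be tested by edgeR's quasi-likelihood test. *Sirt7* was assigned 652, 501 and 639 reads in WT livers 1 to 3 and 312, 394 and 423 reads in KO livers 1 to 3. Its full-length isoform took 63.9% to 76.0% of these reads in WT livers and 18.3% to 39.8% in KO livers. The gene as a whole had a log2 fold change of -0.41 (standard error 0.18, edgeR adjusted p = 0.42), and with transcript length offsets in DESeq2 it was 0.81 (adjusted p = 0.073). In CPM (counts scaled to library size) every KO liver was below every WT liver for the gene, and in TPM, which corrects for the length of the isoforms, every KO liver was above. Hepatocyte markers summed to 41820 to 52165 TPM in WT livers and to 42943 to 43707 TPM in KO livers. *Alb* alone was between 9507 and 12819 TPM. The liver labelled WT 1 stood apart from the other 5 in genes known to be higher in male liver. It was not the only distinct liver. Over all tested genes the Spearman correlation of KO 1 with KO 2 and KO 3 was 0.950 and 0.952. That of WT 1 with WT 2 and WT 3 was 0.963 and 0.962. Of 21 genes known to be higher in male liver it was the lowest liver in 18, and of 19 genes known to be higher in female liver it was the highest in 8 and the lowest in 3. WT 1 held 0 reads of *Xist* and 8.26 TPM of the Y-linked *Ddx3y*, so its sex chromosome genes matched its male label. The log2 fold changes of the tested genes among the 10 are given with and without it.

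None of the 10 genes was called differentially expressed by edgeR, with calls made at an adjusted p below 0.05 together with a change of more than 1.5-fold. The same test called 1 of all 12524 genes (0.00798%). Of the 10 genes 7 had enough reads to be tested, and 3 of these passed an unadjusted p of 0.05, all with lower expression in KO livers (*Nr1i2*, *Nr1i3* and *Cyp2b9*). Among all tested genes 4.78% passed this threshold in the lower direction and 6.54% in the higher direction, where 0 of the 7 stood. In CPM KO livers lay wholly below WT livers for *Nr1i2* and *Nr1i3*, 2 of the 7, against 8.09% of all tested genes. No member was higher without overlap, against 8.74%. The median log2 fold change of the 7 genes was -0.31, and over all tested genes it was -0.01. Without WT 1, 3 of the 7 again passed an unadjusted p of 0.05 in edgeR, but they were *Nr1i2*, *Nr1i3* and *Cyp3a25*, all lower in KO livers, where 3.77% of all genes tested without WT 1 were lower at this threshold.

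**Figure D1:**
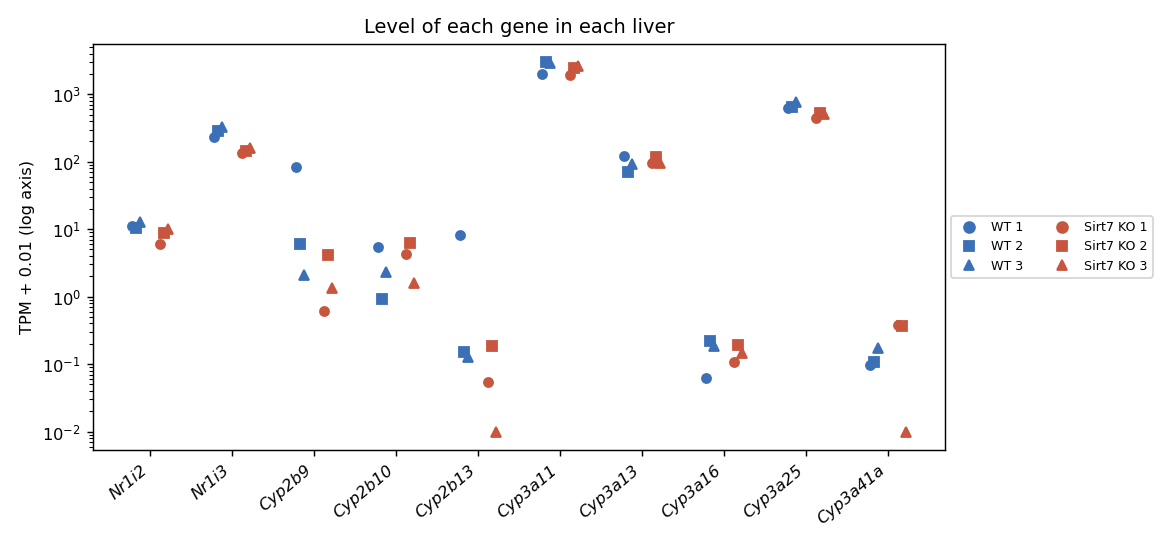
Level of the 10 genes in each liver, as TPM plus 0.01 on a log axis, with blue points for the 3 WT and red points for the 3 *Sirt7* KO livers and 1 symbol per liver. The 3 KO livers lie below the 3 WT livers for *Nr1i2* and *Nr1i3*, and WT 1 lies far above the other livers for *Cyp2b9* and *Cyp2b13*; the points at 0.01 are livers with 0 TPM.

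*Nr1i3* (ENSMUSG00000005677.14) lies on the plus strand of chromosome 1 of GRCm38, from 171213970 to 171220701. It encodes CAR, which waits in the cytoplasm bound to chaperones and moves to the nucleus on activation. The level was 233, 286 and 333 TPM in WT livers 1 to 3 and 134, 145 and 161 TPM in KO livers 1 to 3. The highest KO liver was thus below the lowest WT liver, which was WT 1. The means were 284 ± 49.7 TPM (SD, n = 3) and 147 ± 13.8 TPM (SD, n = 3). *Nr1i3* had a log2 fold change of -0.96 (standard error 0.19, 95% interval -1.38 to -0.53, unadjusted p = 0.00069 and adjusted p = 0.14 from edgeR). DESeq2, the tool named in the methods of the study, called *Nr1i3* lower in KO livers, at a log2 fold change of -0.95 (adjusted p = 0.00028) without transcript length offsets and -0.90 (adjusted p = 0.0060) with them. It called 0.574% of all genes lower without the offsets and 0.513% with them. Without WT 1 the log2 fold change was -1.13 (adjusted p = 0.10 from edgeR). A two-sided exact permutation test of the 6 livers gave p = 0.1, the smallest value that 3 against 3 allow. In whole liver, fewer cells expressing a gene and less RNA per cell cannot be told apart.

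The 250 bases before the start of *Nr1i3*, at chr1:171213720-171213969 on the plus strand of GRCm38.p6 (RefSeq), are shown because this gene differed most clearly among the 10.
Nr1i3: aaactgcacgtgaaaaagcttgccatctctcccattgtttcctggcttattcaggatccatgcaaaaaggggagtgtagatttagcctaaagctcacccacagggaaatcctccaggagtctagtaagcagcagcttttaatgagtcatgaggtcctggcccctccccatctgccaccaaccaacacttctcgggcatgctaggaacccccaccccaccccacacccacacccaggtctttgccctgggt
A search of the 10 promoters, from 250 bases before to 50 bases after the start, covered both strands and 5 motifs. These were the nuclear receptor core site AGGTCA, the STAT5 motif TTCNNNGAA, the FOXA motif TGTTTAC, the CEBP motif TTGCNNAA and the HNF1 core site GTTAAT. None of these letters stands in the windows of *Nr1i3* and *Nr1i2*, so the sequence above has no capitals.

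The deposited files hold 8 isoforms of *Nr1i3*, of which 4 are annotated as protein coding. Reads of 4 of the 8 isoforms, not scaled to library size, were lower in every KO liver than in every WT liver. In TPM the genotypes overlapped for ENSMUST00000133075.7 among these, a nonsense-mediated decay isoform, at 22.0 in WT 1 and 24.8 in KO 2. The coding isoform with the longest transcript, ENSMUST00000155126.7, was assigned 1655, 2076 and 2968 reads in WT livers 1 to 3 and 1140, 662 and 884 reads in KO livers 1 to 3. Its coding sequence, 663 bases, is the shortest of the 4. ENSMUST00000005820.10, with the longest coding sequence (1074 bases), was assigned 735, 119 and 368 reads against 422, 216 and 396 reads. The genotypes overlapped for it and for the other coding isoforms, ENSMUST00000075469.11 and ENSMUST00000111328.7. Isoform ENSMUST00000137298.7, which retains an intron, was assigned 1027, 1489 and 2022 reads against 533, 580 and 549.8 reads. The coding isoforms together took 48.4% ± 2.78 (SD, n = 3) of the *Nr1i3* reads in WT livers and 49.9% ± 5.22 (SD, n = 3) in KO livers, a difference smaller than the spread between mice. Their summed level was 136 ± 19.6 TPM (SD, n = 3) in WT and 75.4 ± 13.03 TPM (SD, n = 3) in KO livers. The gene shares no 31-base word with another gene, so its reads were not divided with a paralog, but the division among its own isoforms is an estimate.

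**Figure D2:**
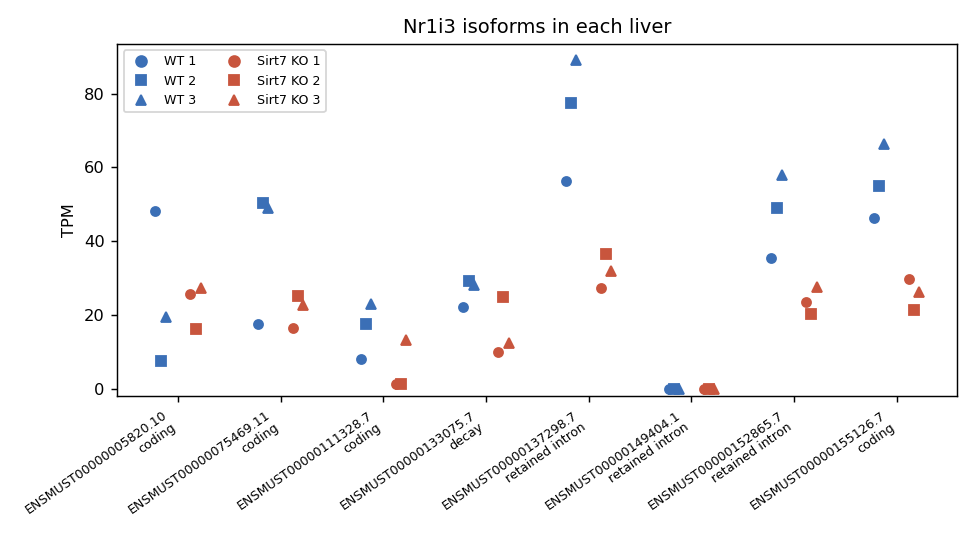
TPM of each *Nr1i3* isoform in each liver, with blue points for WT and red points for *Sirt7* KO livers and the annotated class below each isoform name. The retained intron isoform ENSMUST00000137298.7 and the coding isoform ENSMUST00000155126.7 are lower in all 3 KO livers than in all 3 WT livers, whereas ENSMUST00000149404.1 is at 0 in every liver.

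*Nr1i2* (ENSMUSG00000022809.4) lies on the minus strand of chromosome 16, from 38248323 to 38294824, and encodes PXR. The level was 11.1, 10.5 and 12.7 TPM in WT livers 1 to 3 and 6.04, 8.67 and 9.89 TPM in KO livers 1 to 3. No KO liver reached the lowest WT liver, although KO 3 and WT 2 were close. *Nr1i2* had a log2 fold change of -0.44 (standard error 0.19, 95% interval -0.87 to -0.02, unadjusted p = 0.041 and adjusted p = 0.41 from edgeR), and the exact permutation test gave p = 0.1. Without WT 1 the log2 fold change of *Nr1i2* was -0.52 (unadjusted p = 0.039, adjusted p = 0.52 from edgeR). Its unadjusted p was above 0.05 in 7 of 15 alternatives, among them both DESeq2 fits and the fits without WT 2, WT 3, KO 1 or KO 2. The *Nr1i3* level was 16.3 to 27.2 times the *Nr1i2* level, compared in TPM. This ratio was 21.02, 27.2 and 26.1 in WT livers and 22.1, 16.8 and 16.3 in KO livers, so the genotypes overlapped.

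The Cyp2b genes metabolize drugs and steroids, and *Cyp2b10* is the classical CAR target. *Cyp2b9* (ENSMUSG00000040660.6), on the plus strand of chromosome 7 from 26173411 to 26210661, was at 84.8, 5.98 and 2.06 TPM in WT livers 1 to 3 and 0.61, 4.08 and 1.34 TPM in KO livers 1 to 3. WT 1 was 14.2 times the next highest liver, and the other 5 livers overlapped. *Cyp2b9* had a log2 fold change of -3.85 (standard error 1.26, unadjusted p = 0.014 and adjusted p = 0.29 from edgeR). It was -1.05 (standard error 0.72, adjusted p = 0.75 from edgeR) without WT 1, so the size of the difference rests on that liver. *Cyp2b13* (ENSMUSG00000040583.8), on the plus strand of chromosome 7 from 26061497 to 26096197, had too few reads to be tested. It was at 8.29, 0.14 and 0.12 TPM in WT livers and 0.04, 0.18 and 0 TPM in KO livers, so WT 1 was 47.2 times the next liver. The estimated reads were 177, 3 and 3 in WT and 1, 3 and 0 in KO livers. The mean difference on log2(CPM + 0.5) was -1.72 (two-sided exact permutation p = 0.3), and without WT 1 it was -0.26.

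*Cyp2b10* (ENSMUSG00000030483.14), on the plus strand of chromosome 7 from 25897620 to 25926624, was at 5.45, 0.92 and 2.31 TPM in WT livers and 4.26, 6.19 and 1.59 TPM in KO livers. The genotypes overlapped, and KO 2 and WT 1 were the highest livers. *Cyp2b10* had a log2 fold change of 0.58 (standard error 0.61, 95% interval -0.80 to 1.96, adjusted p = 0.78 from edgeR), and without WT 1 it was 1.33 (standard error 0.61, unadjusted p = 0.061, adjusted p = 0.58 from edgeR). The estimate for this classical target lay in the opposite direction to that of its receptor *Nr1i3*, with 20 to 119 reads per liver and an interval that covers both directions. Of the other genes of the subfamily, *Cyp2b19* and *Cyp2b23* were assigned 0 reads in all 6 livers. The summed Cyp2b level was 98.6 TPM in WT 1 and 2.93 to 10.5 TPM in the other 5 livers.

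The promoters of the 3 Cyp2b genes are shown because *Cyp2b9* and *Cyp2b13*, the genes that were high in WT 1, have nearly the same sequence and *Cyp2b10* has not. The bases are the 250 before the RefSeq start on GRCm38.p6, all on the plus strand, at chr7:26173159-26173408, chr7:26061245-26061494 and chr7:25897408-25897657. In *Cyp2b9* and *Cyp2b13* the capitals mark the bases that differ between them, and in *Cyp2b10* they mark a match to the CEBP motif.
Cyp2b9: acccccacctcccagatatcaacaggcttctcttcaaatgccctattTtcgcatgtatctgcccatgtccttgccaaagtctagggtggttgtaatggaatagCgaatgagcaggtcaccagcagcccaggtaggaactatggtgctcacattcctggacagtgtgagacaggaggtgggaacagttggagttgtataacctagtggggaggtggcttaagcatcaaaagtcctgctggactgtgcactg
Cyp2b13: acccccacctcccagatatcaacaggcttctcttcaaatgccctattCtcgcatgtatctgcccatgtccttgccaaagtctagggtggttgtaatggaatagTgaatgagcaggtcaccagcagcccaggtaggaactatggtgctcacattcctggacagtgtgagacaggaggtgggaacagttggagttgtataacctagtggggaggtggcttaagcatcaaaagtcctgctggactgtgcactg
Cyp2b10: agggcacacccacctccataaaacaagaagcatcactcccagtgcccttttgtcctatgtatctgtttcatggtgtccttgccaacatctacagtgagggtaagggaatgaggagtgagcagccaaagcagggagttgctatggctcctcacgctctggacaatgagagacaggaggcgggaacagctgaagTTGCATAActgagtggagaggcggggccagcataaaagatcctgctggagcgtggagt
Over the 300 bases of the full window *Cyp2b9* and *Cyp2b13* were 99.3% identical, with the differences T48C and C104T (the *Cyp2b9* base first, counted from the 5′ end of the window). Each was 71.7% identical to *Cyp2b10*. Both hold 1 AGGTCA, found in 16.3% of the 32851 mouse promoters of the same length, and 1 CEBP match, a motif found in 10.8%. *Cyp2b10* holds no AGGTCA in this window, which does not cover more distant enhancers. The transcripts overlap as well, since 40.8% of the 31-base words of *Cyp2b13* and 26.1% of those of *Cyp2b9* occur in other genes. *Cyp2b13* was at 9.77% of the *Cyp2b9* level in WT 1 and at 0% to 7.23% in the other livers, and how far the *Cyp2b13* reads of WT 1 came from *Cyp2b9* was not tested.

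Cyp3a enzymes carry out much of the drug oxidation of the liver, and *Cyp3a11* is the main PXR target in mice. *Cyp3a11* (ENSMUSG00000056035.8), on the minus strand of chromosome 5 from 145854426 to 145879964, was at 1996, 2962 and 2893 TPM in WT livers 1 to 3 and 1922, 2424 and 2660 TPM in KO livers 1 to 3. The lowest livers of the genotypes, WT 1 and KO 1, were close and the ranges overlapped. *Cyp3a11* had a log2 fold change of -0.14 (standard error 0.23, 95% interval -0.67 to 0.39, adjusted p = 0.88 from edgeR), and without WT 1 it was -0.34 (adjusted p = 0.65 from edgeR). *Cyp3a11* alone held 72.3% to 80.3% of the summed Cyp3a level of a liver. That sum was 2761, 3728 and 3799 TPM in WT livers and 2494, 3125 and 3314 TPM in KO livers.

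*Cyp3a25* (ENSMUSG00000029630.15), on the minus strand of chromosome 5 from 145977194 to 146009618, was second in level, at 618, 653 and 763 TPM in WT livers and 450.1, 535 and 516 TPM in KO livers. Every KO liver was below every WT liver in TPM, but not in CPM, which takes no account of isoform length. *Cyp3a25* had a log2 fold change of -0.31 (standard error 0.17, 95% interval -0.69 to 0.08, unadjusted p = 0.10 and adjusted p = 0.55 from edgeR). Without WT 1 it was -0.45 (unadjusted p = 0.017, adjusted p = 0.40 from edgeR). Of its 31-base words 45.9% occur in other genes, most of them in *Cyp3a59*, which was at 25.6, 41.4 and 49.5 TPM in WT and 26.3, 48.5 and 41.3 TPM in KO livers. *Cyp3a25* was 11.03 to 24.1 times the *Cyp3a59* level.

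*Cyp3a13* (ENSMUSG00000029727.7), on the minus strand of chromosome 5 from 137892932 to 137921619, lies apart from the other Cyp3a genes on that chromosome. The level was 121, 71.0 and 92.2 TPM in WT livers and 94.8, 117 and 95.9 TPM in KO livers. The KO livers lay within the WT range, of which WT 1 was the top, and above WT 2 and WT 3. The log2 fold change was 0.17 (standard error 0.18, 95% interval -0.24 to 0.58, adjusted p = 0.78 from edgeR), and without WT 1 it was 0.32 (adjusted p = 0.68 from edgeR). In order of mean WT level the Cyp3a genes tested were *Cyp3a11*, *Cyp3a25*, *Cyp3a13* and *Cyp3a59*, and no liver of one overlapped a liver of the next.

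*Cyp3a16* (ENSMUSG00000038656.5) and *Cyp3a41a* (ENSMUSG00000075551.4), both female genes of adult mouse liver, were near 0 in every liver and were not tested. *Cyp3a16* was assigned 1, 4 and 4 reads in WT and 2, 3 and 3 reads in KO livers (two-sided exact permutation p = 0.9). *Cyp3a41a* was assigned 2, 2 and 5 reads in WT and 9, 7 and 0 reads in KO livers (two-sided exact permutation p = 0.4). Almost every 31-base word of *Cyp3a41a* (99.9%) occurs in another gene, mainly *Cyp3a41b*, so its reads cannot be placed with certainty. WT 1, which was high for the female Cyp2b genes, was at 0.05 TPM of *Cyp3a16* and 0.09 TPM of *Cyp3a41a*, at or below the other WT livers.

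The promoters of 3 Cyp3a genes are shown because *Cyp3a11* and *Cyp3a25* were high and *Cyp3a16* was near 0. They are the 250 bases before the RefSeq start on the minus strand of GRCm38.p6, at chr5:145879855-145880104, chr5:146009619-146009868 and chr5:145469724-145469973, and capitals mark matches to the motifs searched.
Cyp3a11: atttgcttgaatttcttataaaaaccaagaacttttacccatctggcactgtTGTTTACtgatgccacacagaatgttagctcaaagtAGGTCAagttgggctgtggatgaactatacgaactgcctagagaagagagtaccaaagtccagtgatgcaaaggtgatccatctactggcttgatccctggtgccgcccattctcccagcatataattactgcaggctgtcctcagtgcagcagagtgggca
Cyp3a25: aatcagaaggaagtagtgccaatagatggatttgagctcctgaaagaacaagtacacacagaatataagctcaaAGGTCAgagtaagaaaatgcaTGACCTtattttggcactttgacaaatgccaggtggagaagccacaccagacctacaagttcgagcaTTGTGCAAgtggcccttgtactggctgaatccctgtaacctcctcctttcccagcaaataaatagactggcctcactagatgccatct
Cyp3a16: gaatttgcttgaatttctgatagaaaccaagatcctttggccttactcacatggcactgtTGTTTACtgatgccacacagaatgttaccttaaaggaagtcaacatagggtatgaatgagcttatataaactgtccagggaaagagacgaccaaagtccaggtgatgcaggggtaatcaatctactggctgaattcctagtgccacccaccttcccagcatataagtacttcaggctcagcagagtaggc
The FOXA motif TGTTTAC, which 3.65% of all promoters hold, stands in *Cyp3a11*, *Cyp3a16* and *Cyp3a41a*. A high gene and a pair near 0 thus share it, and the promoters of *Cyp3a11* and *Cyp3a16* were 75.5% identical. *Cyp3a16* and *Cyp3a41a*, both near 0, were 92.1% identical. The core site AGGTCA stands once in *Cyp3a11* and, in opposite orientations, at 2 places in *Cyp3a25*, which also holds a CEBP match. In all, 4 of the 10 promoters hold AGGTCA and 4 hold the CEBP motif, against 16.3% and 10.8% of all promoters. Both counts include *Cyp2b9* and *Cyp2b13*, whose windows are nearly the same sequence. None of the 10 holds the STAT5 motif, which stands in 8.30% of all promoters, or the HNF1 core site, which stands in 7.10%.

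**Figure D3:**
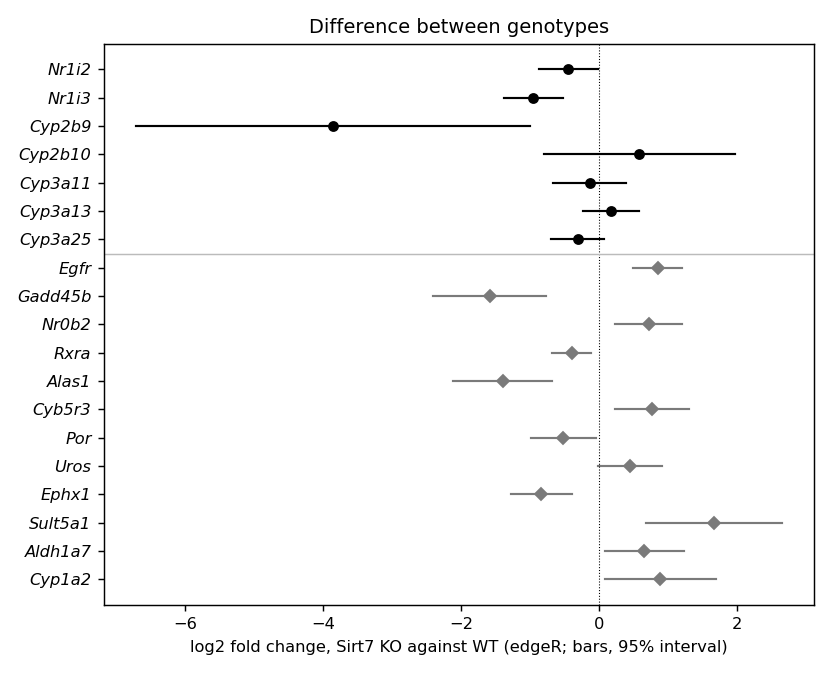
Log2 fold change of *Sirt7* KO against WT livers from edgeR with its 95% interval, for the 7 tested receptor and P450 genes (black circles) and for the 4 genes with the smallest p in each of 3 related lists (grey diamonds). *Nr1i3* lies at -0.96 with an interval clear of 0, and the intervals of *Nr1i2* and *Cyp2b9* also exclude 0. *Cyp2b9* has the widest interval of the genes shown, and the intervals of the Cyp3a genes cover 0.

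The factors that work with CAR and PXR were read from a list of 22 partners, coregulators and upstream genes, all of them tested. At an unadjusted p under 0.05 in edgeR 3 were higher and 5 were lower in KO livers (2 and 4 without WT 1), with a median log2 fold change of -0.19, and none was called. Of all tested genes 6.54% were higher and 4.78% lower at this threshold (703 and 488 of 12944 without WT 1). *Rxra*, the partner of both receptors on DNA, was at 26.4, 23.4 and 24.6 TPM in WT and 17.2, 17.8 and 18.7 TPM in KO livers (log2 fold change -0.40, standard error 0.13, adjusted p = 0.28 from edgeR). *Gadd45b*, a coactivator of CAR, was at 9.06, 8.14 and 6.20 TPM in WT and 3.09, 2.03 and 2.01 TPM in KO livers (log2 fold change -1.58, standard error 0.36, adjusted p = 0.17 from edgeR). *Egfr*, whose signal holds CAR inactive, was at 25.5, 30.9 and 36.2 TPM in WT and 43.3, 56.5 and 60.2 TPM in KO livers (log2 fold change 0.85, standard error 0.16, adjusted p = 0.12 from edgeR). *Nr0b2*, which encodes the corepressor SHP, was at 72.3, 37.5 and 52.1 TPM in WT and 78.6, 102 and 73.5 TPM in KO livers (log2 fold change 0.72, adjusted p = 0.25 from edgeR). The genotypes did not overlap in any of these 4 genes, which were named for their small p in the same livers. In CPM 3 of the 22 were higher without overlap and 6 lower, against 8.74% and 8.09% of all tested genes. DESeq2 with transcript length offsets put *Gadd45b* (adjusted p = 0.0086) and *Egfr* (adjusted p = 0.026) past its threshold.

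Of 13 genes for electron supply and heme synthesis, 1 was higher and 2 were lower at an unadjusted p under 0.05 in edgeR. The shares of all tested genes were 6.54% and 4.78%. The median log2 fold change of the 13 genes was 0.02. *Alas1*, the first and rate-limiting enzyme of heme synthesis and itself a target of CAR and PXR, was at 664, 899 and 1245 TPM in WT and 234, 360 and 542 TPM in KO livers. Every KO liver was below every WT liver. *Alas1* had a log2 fold change of -1.40 (standard error 0.32, edgeR adjusted p = 0.17), and DESeq2 called it at an adjusted p of 0.0060 with offsets and 0.00015 without. *Por*, which passes electrons to all microsomal P450s, was at 238, 242 and 280 TPM in WT and 117, 204 and 197 TPM in KO livers (log2 fold change -0.52, standard error 0.21, adjusted p = 0.39 from edgeR). *Cyb5r3*, the reductase of cytochrome b5, was at 140, 179 and 168 TPM in WT and 175, 332 and 306 TPM in KO livers (log2 fold change 0.77, adjusted p = 0.26 from edgeR).

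A list of 26 other CAR and PXR targets, of which 25 were tested, was mixed in direction. At an unadjusted p under 0.05 in edgeR 3 were higher and 3 were lower (1 and 3 without WT 1), and the median log2 fold change was 0.02. Of all tested genes 6.54% were higher and 4.78% lower (703 and 488 of 12944 without WT 1). *Ephx1*, the microsomal epoxide hydrolase, was at 279, 395 and 308 TPM in WT and 182, 162 and 192 TPM in KO livers (log2 fold change -0.84, standard error 0.19, adjusted p = 0.17 from edgeR and 0.025 from DESeq2 with offsets). *Sult5a1*, a sulfotransferase, was at 2.66, 13.4 and 8.51 TPM in WT and 29.4, 31.9 and 30.0 TPM in KO livers (log2 fold change 1.66, standard error 0.44, adjusted p = 0.21 from edgeR and 0.0036 from DESeq2 with offsets). *Aldh1a7* (log2 fold change 0.65) and *Cyp1a2* (0.89), a dehydrogenase and a P450 of caffeine metabolism, were the other genes with the smallest p. The remaining genes lower at this threshold were *Ugt2b34* and *Slco1a4*, which were named after their values were seen.

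**Figure D4:**
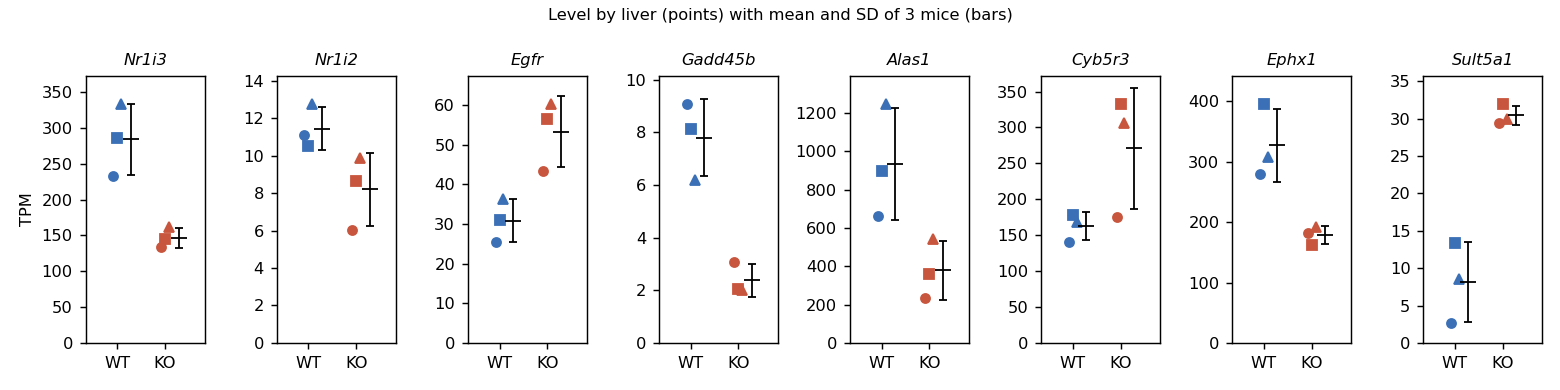
TPM of both receptors and of the 2 genes with the smallest p in each of the 3 related lists, in each liver on axes that start at 0, with blue points for WT, red points for *Sirt7* KO livers and bars for the mean and SD of 3 mice. All KO livers lie below all WT livers for *Nr1i3*, *Nr1i2*, *Gadd45b*, *Alas1* and *Ephx1* and above them for *Egfr* and *Sult5a1*, and the genotypes overlap for *Cyb5r3*.

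*Cyp2b9* and *Cyp2b13* are female-biased, so other sex-biased genes were read beside them. Of 20 tested male-biased genes 14 were higher in KO livers at an unadjusted p under 0.05 in edgeR and 0 were lower, with a median log2 fold change of 1.05. Among all tested genes 6.54% were higher and 4.78% lower at this threshold, which holds for the lists below as well. Without WT 1 the count was 15 of 21, and of all 12944 genes tested in that fit 703 were higher and 488 lower. *Moxd1* entered the list in that fit. It had 0 reads in every WT liver and 21, 6 and 58 in KO livers, so it passed the filter only through KO livers. *Hsd3b5*, a steroid dehydrogenase of male liver, was at 0.29, 1.67 and 4.84 TPM in WT and 22.6, 44.8 and 80.7 TPM in KO livers. Of 9 tested female-biased genes 2 were higher (*Atp6v0d2* and *Hamp2*) and 2 were lower (*Fmo2* and *Tox*), and without WT 1 the counts were 1 and 2. WT 1 was the lowest liver for *Atp6v0d2* and *Hamp2*. *Cyp2a4*, a female gene chosen here after its values were seen, was at 9.55 TPM in WT 1 and at most 0.42 TPM in the other livers. Of 9 growth hormone pathway genes, all tested, 2 were higher and 2 were lower at an unadjusted p under 0.05 in edgeR (1 and 1 without WT 1). Their median log2 fold change was 0.13. In this pathway *Socs2*, a target of its signal, was at 42.1, 13.25 and 22.7 TPM in WT and 5.87, 8.31 and 13.75 TPM in KO livers, with WT 2 just below KO 3 (log2 fold change -1.45, adjusted p = 0.14 from edgeR). *Bcl6*, a repressor of female genes in male liver, was at 1.60, 2.39 and 0.80 TPM in WT and 7.99, 3.44 and 5.41 TPM in KO livers (log2 fold change 1.88, adjusted p = 0.17 from edgeR). The part of these differences in the Cyp2b levels was not tested.

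**Figure D5:**
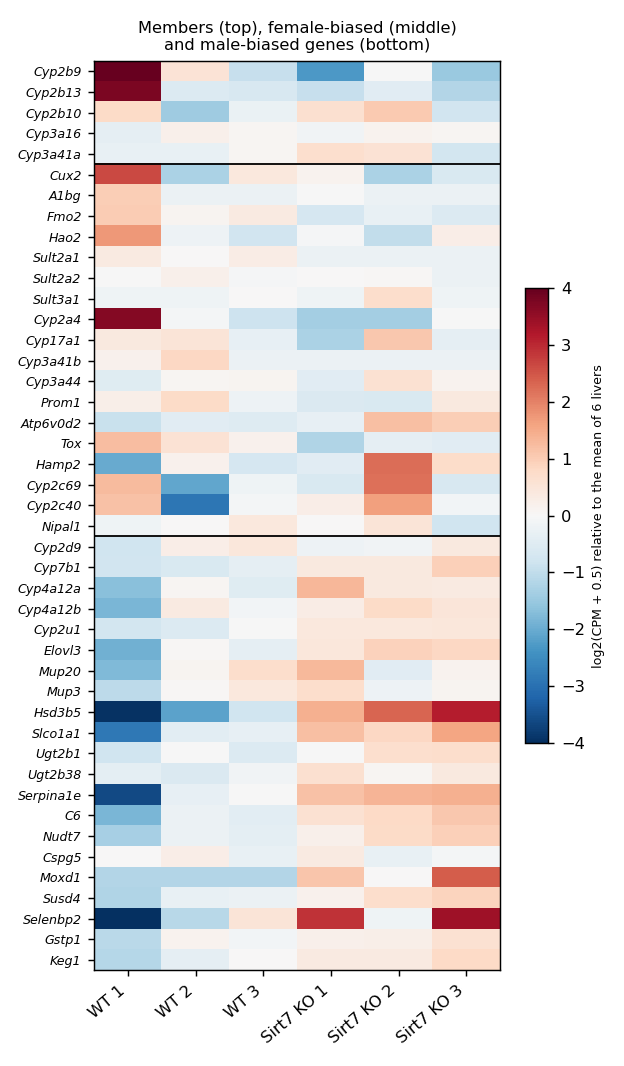
Heat map of log2(CPM + 0.5) relative to the mean of the 6 livers for 5 of the P450 genes described (top), 18 of the female-biased genes (middle) and 21 male-biased genes (bottom), with red for higher, blue for lower and values beyond 4 drawn as 4. The column of WT 1 is red for *Cyp2b9*, *Cyp2b13* and *Cyp2a4* and blue for most male-biased genes, while *Cyp3a16* and *Cyp3a41a* are pale in all livers.

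The acute-phase genes, which hepatocytes raise in inflammation, were read as a list of 11. Of these 2 were higher in KO livers at an unadjusted p under 0.05 in edgeR, where 6.54% of all tested genes were. Without WT 1 it was 9 of the 11, and 703 of all 12944 genes tested in that fit. WT 1 was the highest liver in 5 of the 11 and the lowest in 0. *Saa1* was at 1572 TPM in WT 1, 58.0 and 152 TPM in the other WT livers and 496 to 997 TPM in KO livers. WT 1 also had the lowest *Nr1i3* level among WT livers and a *Cyp3a11* level near that of KO 1, and the part of the acute-phase genes in these values was not tested. Of 8 tested pericentral genes, which mark the zone where P450s are highest, 1 was higher and 0 were lower (0 and 0 without WT 1), and of 7 periportal genes 0 passed in either direction. The shares of all tested genes were 6.54% higher and 4.78% lower.

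The 3 genes most like each tested member were taken by the Pearson correlation of log2 CPM over the 6 livers, which share genotype and library, so these are descriptions. For *Nr1i2* they were *Tef* (r = 0.99), *Gm17690* and *Usp2*, and for *Nr1i3* they were *Rhobtb1* (r = 0.99), *Orc5* and *Dgkd*. For *Cyp3a11* the list held *Mtx2*, *Cyb5a* and *Sept1*, and for *Cyp3a25* it held *Cpeb1*, *Ugt2b36* and *Lipg*. *Cyp2b9* was most like *Ppm1g*, *Slc25a29* and *Anapc15*, *Cyp2b10* like *Dph2*, *Slc7a6os* and *Gm49284*, and *Cyp3a13* like *Uhrf2*, *Gm45864* and *Cyp2c40*. Among the members r was 0.91 for *Nr1i3* and *Cyp3a25*, 0.80 for both receptors and 0.94 for *Cyp2b10* and *Cyp3a13*. *Nr1i3* and *Cyp2b10* gave r = -0.56 over the same livers.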

How the data were processed

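RNA-seq of 3 WT and 3 *Sirt7* KO livers was analysed. Per the labels and methods of the study, the authors trimmed reads with Trim Galore 0.6.5 and quantified transcripts of GRCm38 with Salmon 1.2.1, and the annotation release is not given in the sources used here. The authors deposited, per liver, the estimated count of each transcript, which is not normalized, together with TPM and the effective length that Salmon used, and replicates were not pooled. Estimated counts were summed per gene of GENCODE M21 and rounded. Of 140992 transcripts, 139172 matched with the same version and 619 with another, and 1201 had no gene and were left out (0.303% to 0.492% of reads). TPM was summed per gene.

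Genotypes were compared in R 4.3.3 with the quasi-likelihood test of edgeR 4.0.16, after TMM scaling and filterByExpr at its defaults (minimum count 10), with Benjamini-Hochberg adjustment over 12524 genes. CPM used TMM-scaled library sizes. DESeq2 1.42.0, with and without average transcript length offsets, was an alternative, as were RLE, upper quartile and total count scaling, no filter, a mean count of at least 50, the replicate number as a block and leaving out each liver. For genes below the filter the livers were permuted exactly, two-sided, on log2(CPM + 0.5), with pseudocounts of 1 and 0.1 CPM as alternatives. The edgeR and DESeq2 code was tested on simulated counts. Depth covers counting error only, and intervals are from edgeR. Promoters are from the RefSeq table for GRCm38.p6, searched with Python 3.11.15 and aligned with Biopython 1.88. Printed promoters stop at the start site.

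The genes and lists were chosen with earlier results of these data known. The text names every member, *Sirt7* and, from each list, up to 4 genes with the smallest unadjusted p, together with the 3 genes most like each tested member. Genes outside this rule (*Alb*, *Saa1*, *Ddx3y*, *Xist*, *Cyp3a59*, *Cyp2b19*, *Cyp2b23*, *Moxd1*) were named after their values were seen. The values of 1 female-biased gene are not reported here. All livers differed by more than sampling noise (chi-square of at least 16.9 per gene within a genotype), so each counted as 1 sample. Nothing in the labels ties mice of the same number together.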

Additional observations from a re-analysis of the deposited data

How the results depend on the processing

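The number of genes called moved with the tool and the filter. It was 1 in edgeR as reported, 2 with total count scaling and with length offsets, 633 without a filter on low counts, 257 in DESeq2 without length offsets and 240 with them. Leaving out 1 liver gave 0 to 252, and the highest count came without KO 1. Of the members, 3 were called without a filter (*Nr1i3*, *Cyp2b9* and *Cyp2b13*) and 1, *Nr1i3*, in DESeq2 with and without length offsets. In the other 12 alternatives none was called. Without a filter 216 genes were called lower and 417 higher, and only the 26234 of 54115 genes with 0 reads were left out. WT 1 held 1814 reads of *Cyp2b9* and 177 of *Cyp2b13*, and the other livers held at most 135 and 3. The standard error of *Cyp2b9* was 0.23 without a filter and 1.26 in edgeR as reported. *Nr1i3* was lower in KO livers in all 15 alternatives, with a log2 fold change of -1.13 to -0.81. Its adjusted p ran from 0.00021 (edgeR without a filter) to 0.43 (edgeR without KO 2), and its unadjusted p was under 0.05 in each. *Nr1i2* stayed between -0.58 and -0.29 and *Cyp2b9* between -4.86 and -1.05. *Cyp3a11* ranged from a log2 fold change of -0.34 without WT 1 to 0.0028 without WT 2, where its direction turned. The 3 members below the filter kept their side of the test with both pseudocounts. The cause of these differences was not tested.

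With the replicate number as a block, edgeR called 41 genes and 0 members, and 2 members (*Nr1i2* and *Nr1i3*) had an unadjusted p under 0.05, with a log2 fold change of -0.93 for *Nr1i3* (adjusted p = 0.11 from edgeR). The deviations of livers with the same number correlated at 0.07, 0.08 and -0.04, so the numbers were not taken as pairs. Scaling to total counts alone put the median change of all genes at -0.11 (log2). The 3 members with the fewest reads did not pass the filter on low counts at this depth.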

Other observations

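*Tef*, the gene most like *Nr1i2* over the 6 livers, and *Dbp* and *Hlf* encode the PAR bZIP factors, circadian activators that are known to sustain *Nr1i3*, *Por* and *Alas1* expression in liver. They were looked at, with *Usp2* and *Nfil3*, after the correlations had been seen. *Tef* was at 26.0, 25.9 and 47.0 TPM in WT livers 1 to 3 and 10.2, 18.5 and 20.9 TPM in KO livers 1 to 3 (log2 fold change -0.88, standard error 0.24, adjusted p = 0.22 from edgeR). *Dbp* was at 34.2, 73.7 and 85.4 TPM in WT and 7.22, 27.0 and 42.3 TPM in KO livers (log2 fold change -1.21, standard error 0.52, adjusted p = 0.42 from edgeR). *Hlf* had a log2 fold change of -0.33 (adjusted p = 0.59 from edgeR). *Usp2*, another clock output gene, was at 21.5, 43.9 and 69.2 TPM in WT and 1.48, 6.14 and 28.7 TPM in KO livers (log2 fold change -2.08, adjusted p = 0.27 from edgeR). *Nfil3*, a repressor at the same sites, was at 4.85 to 15.6 TPM in WT and 7.07 to 16.9 TPM in KO livers. Of these 5 genes 3 were lower and 0 higher at an unadjusted p under 0.05 in edgeR, against 4.78% and 6.54% of all tested genes. Without WT 1, 4 were lower and 1 was higher. In that fit 3.77% of all tested genes were lower, and 703 of 12944 were higher. The time of day at which each liver was collected is not given in the sources used here, and its part in these values was not tested.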
